A study of Mus musculus with 12 samples.

Results

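Coagulation, anticoagulant, plasminogen activation and thrombospondin genes were followed in mouse peritoneal macrophages. The set held 9 of the 41388 genes in each deposited table: F3, F7, F10 and F5 (clotting), Thbd and Procr (anticoagulant receptors), Plau and Plaur (plasminogen activation) and Thbs1. All 9 passed the filter on low counts, which kept 12914 genes. F10, Thbd and Thbs1 were selected on the size of their log2 differences between groups of these libraries, with no comparison named, so their values are given as a description with no test. The other 6 were named for their role and were tested.

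The cells were thioglycolate-elicited peritoneal macrophages, phagocytes drawn into the abdomen by an irritant broth, collected on day 4 after the injection and plated. On the next day they received vehicle (albumin in saline, BSA-PBS) or 250 uM palmitate, a saturated fatty acid, with 100 ng/ml LPS (bacterial endotoxin) for 8 h. Control cells came from mice with the LysM-Cre driver alone, and the other cells carried the same driver and were labelled PPARg KO (LysM-PPARg). LysM-Cre expresses the recombinase from the lysozyme M gene, which is active in myeloid cells, so every group carried Cre and the labels place the loss of PPARg in such cells only. The 4 groups had 3 libraries each: vehicle controls, vehicle labelled-knockout, stimulated controls and stimulated labelled-knockout. The labels used here give no age, sex or number of animals and do not say whether libraries came from separate animals or cultures, so p-values measure only the spread between these libraries. Palmitate and LPS were given together, and their effects cannot be told apart.

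Tissue factor, the product of F3, is the membrane receptor that starts clotting: it binds factor VII (F7), the complex activates factor X (F10), and activated factor X with its cofactor, factor V (F5), makes thrombin. Thrombomodulin (Thbd) captures thrombin and, with the endothelial protein C receptor (Procr), turns it to the activation of protein C, which inactivates the factor V cofactor. Urokinase (Plau) on its receptor (Plaur) makes plasmin, the protease that dissolves fibrin, and the serpin encoded by Serpinb2 blocks urokinase. Thrombospondin-1 (Thbs1) is a secreted adhesive glycoprotein that binds CD36 and CD47 and can activate latent TGF-beta. Activated monocytes and macrophages are a known source of tissue factor, and macrophages are known to make several of the clotting factors that circulate mainly from the liver.

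Total counts ran from 17960457 to 22696385 per library. Levels are CPM, counts scaled to a common library size after TMM normalisation, with mean ± SD over n = 3 libraries, and differences are log2 ± standard error from edgeR's quasi-likelihood fit, with p-values adjusted over all 12914 genes and a threshold of 0.05. Pparg, the gene named in the genotype label, was at 62.3, 61.6 and 61.0 CPM in the vehicle controls and at 111, 91.0 and 95.9 CPM in the vehicle libraries labelled knockout, a log2 difference of 0.69 ± 0.11 (edgeR, adjusted p = 0.00124). After stimulation it was at 3.63, 2.86 and 4.14 CPM in controls and at 3.59, 5.04 and 4.73 CPM in the libraries labelled knockout (log2 difference 0.33 ± 0.16, adjusted p = 0.177). The deposited value is 1 count over all exons of the gene and can include exons outside a deleted part, so it gives no check of the deletion, and the direction went against the label. The word labelled is therefore kept throughout. In a principal component analysis, component 1 (84.1% of variance) split vehicle from stimulated libraries. On component 2, replicate 1 of the vehicle labelled-knockout group stood apart from the other two of its group (-29.1 against 8.96 and 10.7), and values without it are given where it changes a call or stands out among the values of a member. The 7 macrophage markers were all detected and summed to between 5130 and 8270 CPM, most of it Cd68. Between genotypes after stimulation, 3 of the 7 were called higher and 1 lower, beside 10% and 6.10% of all tested genes. With stimulation 3 were higher and 2 lower in controls, beside 32% and 34.7% of all tested genes. Of the 8 endothelial markers, Cldn5 was at 0 in all 12 libraries and Pecam1 had at most 5 counts in any, while Vwf had 243 to 871. Kdr had 39 to 53 counts in stimulated controls and 141 to 177 in the stimulated libraries labelled knockout. Of the platelet markers, Gp1bb was at 0 in all 12 and Ppbp and Gp9 had at most 3 counts, while Pf4, which macrophages also express, had 1061 to 2145. In bulk RNA, fewer cells of a type and less RNA per cell cannot be told apart.

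Promoter sequences are shown for 5 members because F3, Procr and Plaur share a motif in this window and the neighbours F7 and F10 share another. F3, Procr and Plaur rose with palmitate plus LPS, and F10, which was also higher in stimulated libraries, has no match to the first motif. The windows come from a set of RefSeq promoter windows (GRCm38.p6) that held 6 of the 9 members. Thbd, Plau and Thbs1 had no window in that set, so their promoters were not searched. Each runs 5′ to 3′ on the plus strand and ends just before the gene's start, which is the deposited start for Procr and the RefSeq start for the others. Capitals mark the AP-1 motif TGANTCA and the nuclear receptor half-site AGGTCA, which reads TGACCT on the other strand. The F3 stretch is chr3:121723287-121723536, Procr chr2:155750967-155751116, Plaur chr7:24462233-24462482, F7 chr8:13025784-13026033 and F10 chr8:13037058-13037307.
F3: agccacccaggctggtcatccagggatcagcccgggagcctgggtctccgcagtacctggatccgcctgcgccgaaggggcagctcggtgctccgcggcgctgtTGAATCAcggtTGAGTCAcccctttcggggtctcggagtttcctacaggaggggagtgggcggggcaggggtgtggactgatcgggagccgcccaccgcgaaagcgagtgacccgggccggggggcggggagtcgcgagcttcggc
Procr: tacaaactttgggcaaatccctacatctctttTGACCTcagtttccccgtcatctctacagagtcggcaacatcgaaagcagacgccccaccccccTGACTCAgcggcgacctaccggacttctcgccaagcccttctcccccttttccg
Plaur: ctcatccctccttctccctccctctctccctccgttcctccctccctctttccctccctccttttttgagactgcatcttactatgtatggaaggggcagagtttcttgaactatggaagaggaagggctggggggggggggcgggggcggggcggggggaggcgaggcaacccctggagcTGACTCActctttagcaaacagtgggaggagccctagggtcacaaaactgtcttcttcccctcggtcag
F7: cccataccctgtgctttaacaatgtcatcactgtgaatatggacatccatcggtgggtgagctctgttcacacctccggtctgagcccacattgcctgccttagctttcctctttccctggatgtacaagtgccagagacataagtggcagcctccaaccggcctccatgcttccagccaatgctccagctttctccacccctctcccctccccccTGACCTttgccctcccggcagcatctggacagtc
F10: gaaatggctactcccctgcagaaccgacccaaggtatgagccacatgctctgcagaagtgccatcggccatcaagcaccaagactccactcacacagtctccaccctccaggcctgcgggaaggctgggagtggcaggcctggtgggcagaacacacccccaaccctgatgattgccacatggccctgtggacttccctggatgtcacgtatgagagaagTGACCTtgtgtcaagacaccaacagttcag
AP-1 is a family of Fos and Jun dimers. Its motif was found in 3 of the 6 members with a window: in F3 at 146 and 135 bases before the start, in Procr at 154 bases before the RefSeq start (which lies 100 bases downstream of the deposited start) and in Plaur at 69 bases. Of 32817 promoter windows of the same length, 7.81% held it on either strand. All motifs but TATAAA were searched on both strands. The half-site, the short element to which many nuclear receptors bind, was found in 4 of the 6, against 16.3% of all windows. It lay 34 bases before the start in F7, 30 bases in F10 and 57 bases in F5. In Procr it lay 218 bases before the RefSeq start. The NF-kB motif GGGNNTTTC was in none of the 6 windows and in 4.36% of all, EGR GCGTGGGCG in none and in 0.612%, and TATAAA on the plus strand in none and in 8.32%. Only these exact letters were counted. NF-kB sites with other letters were not searched for, so none found does not mean that F3 or another window lacks one. CCGCCC was in 3 of the 6 and in 35.6% of all windows. The hypoxia core is GCGTG or ACGTG, and the looser NCGTG that was searched was in 2 of the 6 and in 61.7%. In F3 the NCGTG match overlapped the first AP-1 match and was CACGG, which is CCGTG on the other strand and not the core. F10 held CACGT, which is ACGTG on the other strand, at 45 bases before the start. The share of all windows with the core itself was not counted. These are letter matches in a short window and say nothing of binding.

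**Figure D1:**
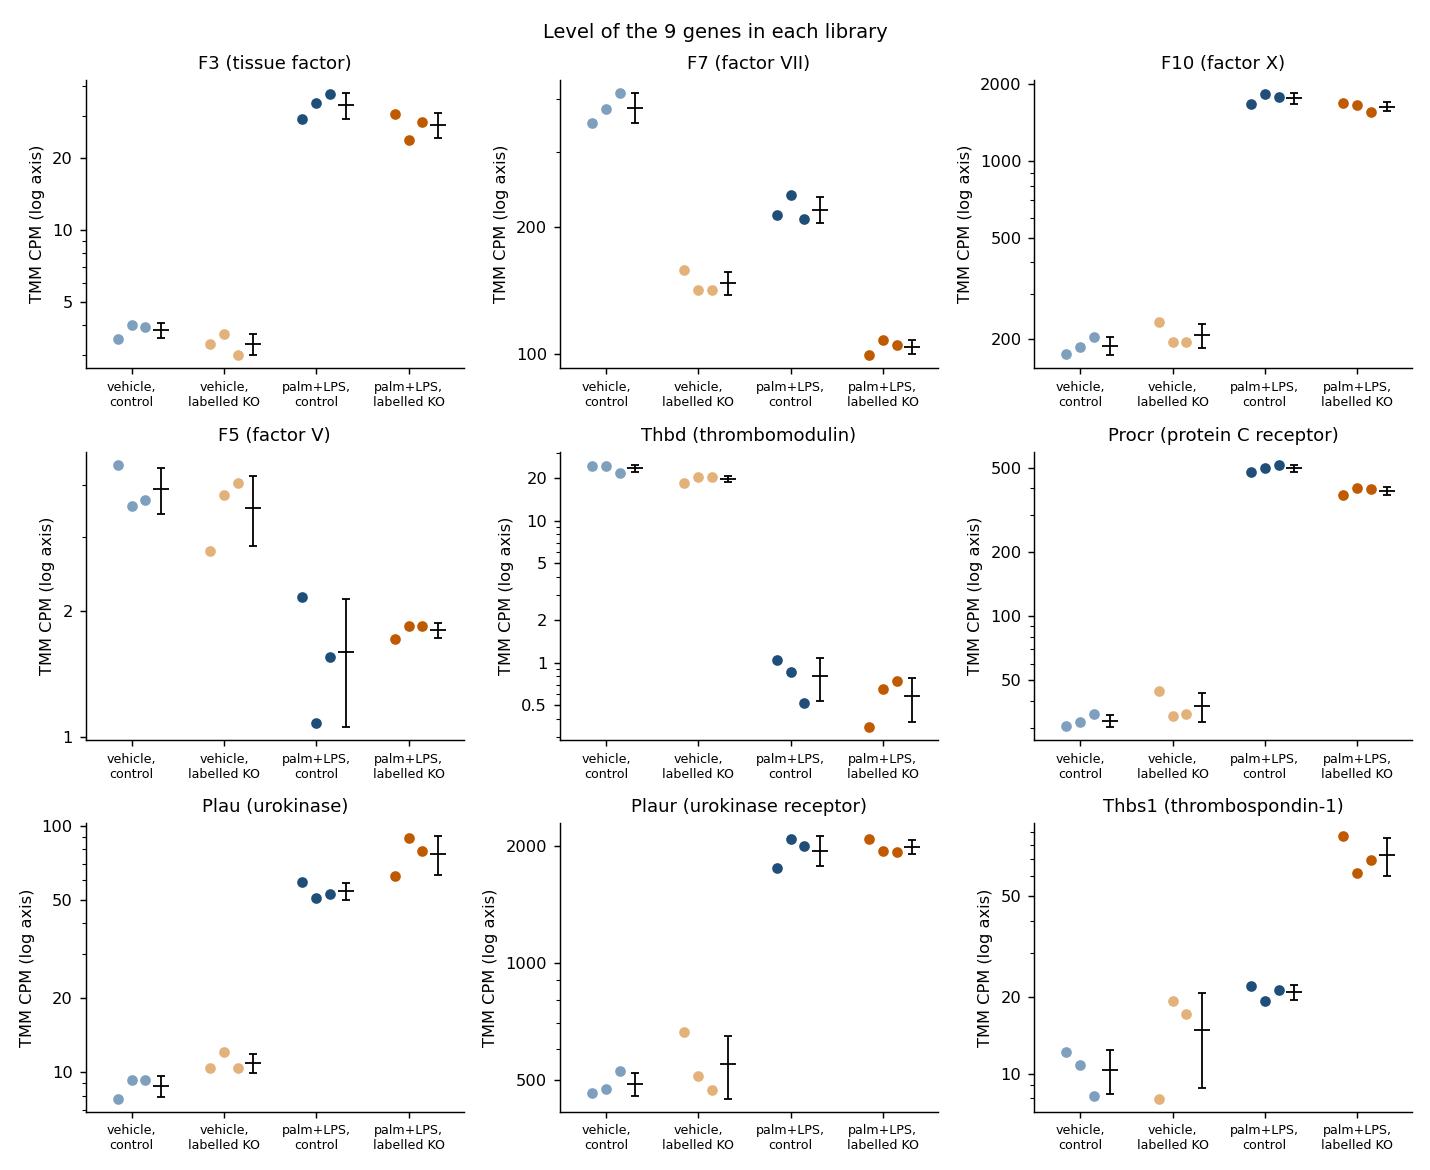
TMM-normalised CPM (log axis) of the 9 genes in each of the 12 libraries, with the mean and SD of each group of 3 beside the points. F3, F10, Procr, Plau and Plaur are higher in all 6 stimulated libraries than in all 6 vehicle libraries, Thbd and F5 are lower, F7 separates by genotype and by treatment, and Thbs1 is highest in the stimulated libraries labelled knockout.

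Palmitate plus LPS moved each of the 6 tested members in the same direction in both genotypes: F3, Procr, Plau and Plaur rose and F5 and F7 fell. In controls, 4 of 6 were called higher, where 32% of all tested genes were, and 2 of 6 lower, where 34.7% were. In the libraries labelled knockout the counts were again 4 of 6 higher (33.7% of all genes) and 2 of 6 lower (35.6% of all genes). Most tested genes were called in one direction or the other, so that all 6 were called says little about them. Their median log2 response was 2.31 in controls and 2.34 in the libraries labelled knockout, against -0.05 and -0.06 over all tested genes. These 2 responses share no library, but the response and the genotype comparisons share theirs, so they are not independent of each other. With scaling to the total count, the median of all genes moved to -0.38 and -0.42, and the split of calls moved from 4132 higher and 4480 lower to 2644 and 6416 in controls, and from 4356 and 4600 to 2676 and 6570 in the libraries labelled knockout. All 6 members kept their calls and directions under it.

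The genotype comparison moved fewer members. In vehicle, 0 of 6 were called higher by edgeR (2.11% of all genes were), with 2 at an unadjusted p under 0.05 and 0 by DESeq2, and 1 of 6, F7, was called lower (1.69% of all genes). After stimulation, 1 of 6, Plau, was called higher (10% of all genes) and 2 of 6, F7 and Procr, lower (6.10% of all genes). The response differed between the genotypes for 1 of 6, Procr, which responded less in the libraries labelled knockout (3.35% of all genes were called so), while 0 of 6 responded more (4.70% of all genes), with 1 at an unadjusted p under 0.05 and 0 by DESeq2. The median of the 6 was 0.02 in vehicle, -0.12 after stimulation and 0.05 for the difference in response, beside 0.01, -0.01 and -0.01 over all tested genes. With total-count scaling the split of calls turned from 1293 higher and 788 lower to 841 and 1578 after stimulation, and from 607 and 432 to 388 and 788 for the difference in response.

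**Figure D2:**
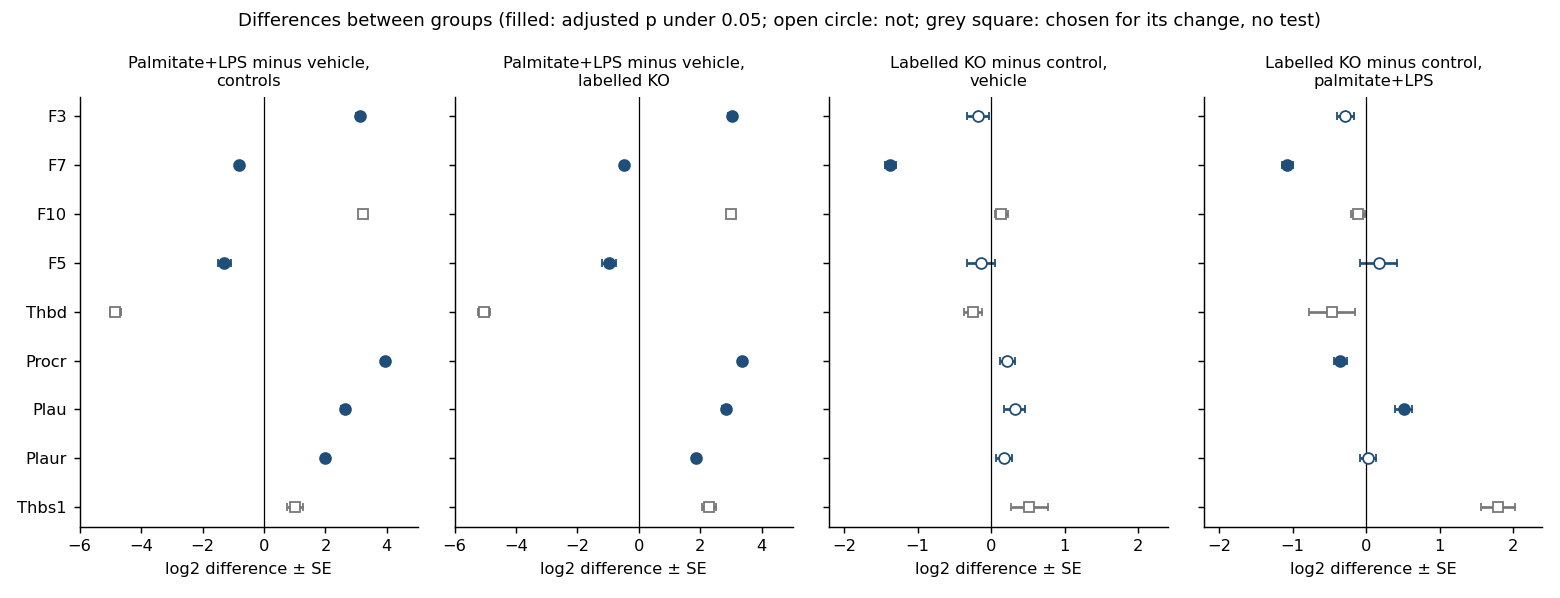
Log2 differences ± standard error for the 9 genes in the 4 pairwise comparisons, with filled circles for an edgeR adjusted p under 0.05, open circles for those above it and grey squares for F10, Thbd and Thbs1, which have no test. Treatment differences reach from -5.05 for Thbd to 3.94 for Procr, while genotype differences lie between -1.37 for F7 and 1.79 for Thbs1.

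F3 (ENSMUSG00000028128, chr3:121723537-121735052, GRCm38, plus strand), the initiator, was at 3.51, 4.02 and 3.94 CPM in vehicle controls and at 29.1, 33.9 and 37.3 CPM in stimulated controls. In the libraries labelled knockout it was at 3.35, 3.70 and 3.01 CPM in vehicle and at 30.5, 23.9 and 28.3 CPM after stimulation. Every stimulated library was above every vehicle library. F3 rose by 3.13 ± 0.13 (log2) in controls (8.75-fold, edgeR, adjusted p = 6.19e-12) and by 3.03 ± 0.14 in the libraries labelled knockout (adjusted p = 1.08e-11). The genotypes overlapped under both treatments. The stimulated difference was -0.28 ± 0.11 (edgeR, adjusted p = 0.11), and it passed the threshold without vehicle labelled-knockout replicate 1 (-0.28, adjusted p = 0.0249), without stimulated control replicate 1 (-0.38, adjusted p = 0.0486), with total-count scaling (-0.36, adjusted p = 0.0404) and with only the compared groups fitted (adjusted p = 0.0438).

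F7 and F10 lie beside each other on chromosome 8 on the plus strand, F7 (ENSMUSG00000031443) at chr8:13026034-13035809 and F10 (ENSMUSG00000031444) at chr8:13037308-13056676, with 1499 bases between them. F7 encodes the protease partner of tissue factor. It was at 351, 379 and 413 CPM in vehicle controls and at 158, 142 and 142 CPM in the vehicle libraries labelled knockout. Stimulated cells had 213, 237 and 208 CPM in controls and 99.7, 108 and 105 CPM in the libraries labelled knockout. The 4 groups did not overlap at all, in the order vehicle controls, stimulated controls, vehicle labelled-knockout, stimulated labelled-knockout. F7 was lower in the libraries labelled knockout by a log2 difference of -1.37 ± 0.08 in vehicle (edgeR, adjusted p = 1.98e-07) and of -1.07 ± 0.08 after stimulation (adjusted p = 9.71e-07). Stimulation lowered it by -0.80 ± 0.08 in controls (edgeR, adjusted p = 4.35e-07) and by -0.50 ± 0.08 in the libraries labelled knockout (adjusted p = 7.16e-05). The difference between those responses, 0.30 ± 0.12, did not pass (edgeR, adjusted p = 0.126), but did without vehicle labelled-knockout replicate 1 (0.35 ± 0.10, adjusted p = 0.0133).

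F10 encodes the protease on which the clotting pathways converge. It was at 174, 186 and 204 CPM in vehicle controls and at 233, 194 and 194 CPM in the vehicle libraries labelled knockout. After stimulation it was at 1670, 1840 and 1790 CPM in controls and at 1690, 1660 and 1560 CPM in the libraries labelled knockout. The genotypes overlapped under each treatment, and the treatments were far apart. The log2 difference with stimulation was 3.23 ± 0.10 in controls and 2.98 ± 0.10 in the libraries labelled knockout, and 2.90 and 2.62 with total-count scaling. The genotype difference was 0.14 ± 0.09 in vehicle (0.05 ± 0.07 without replicate 1 of the labelled-knockout group, the highest of the 6) and -0.11 ± 0.09 after stimulation. F10 had 28683 to 34470 counts in each stimulated library, so its level rests on deep coverage.

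Within a library, counts per exon length can be compared between the neighbours without any scaling between libraries. The ratio of F10 to F7 was 0.336, 0.334 and 0.337 in vehicle controls and 1.0, 0.934 and 0.928 in the vehicle libraries labelled knockout. It was 5.34, 5.28 and 5.84 in stimulated controls and 11.5, 10.4 and 10.1 in the stimulated libraries labelled knockout. The larger of the pair was thus F7 in vehicle controls and F10 in all stimulated libraries, with the 2 near equal in the vehicle libraries labelled knockout.

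**Figure D3:**
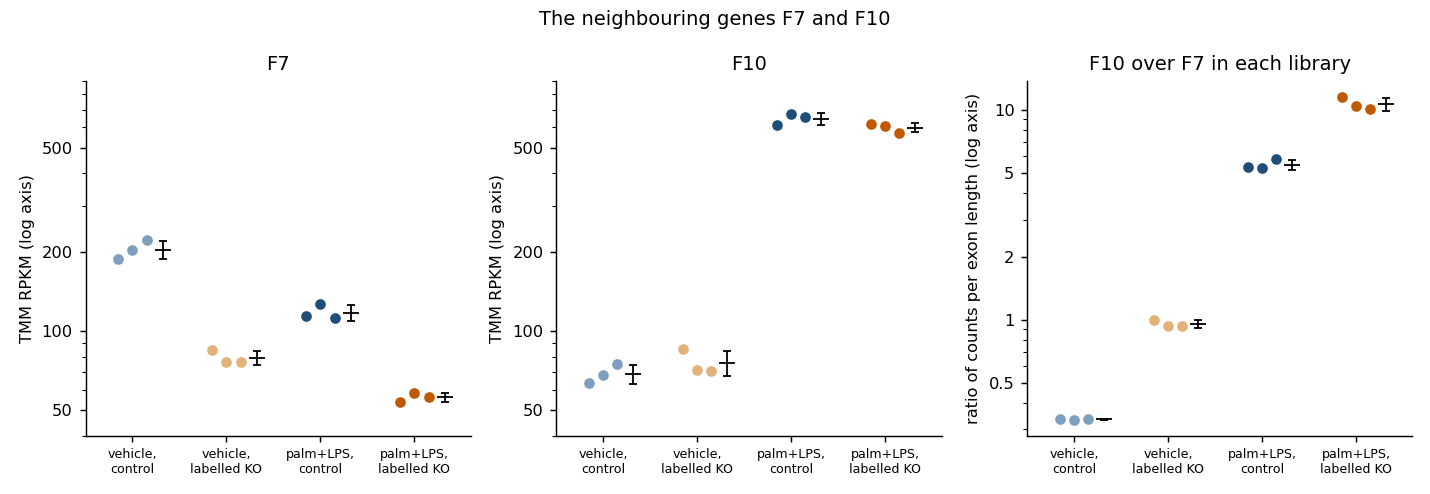
TMM-normalised RPKM (log axis) of F7 and F10 in each library on a common scale, and the ratio of F10 to F7 counts per exon length (log axis), with the mean and SD of each group of 3. The ratio is 0.336 in vehicle controls, 0.954 in vehicle labelled-knockout, 5.49 in stimulated controls and 10.7 in stimulated labelled-knockout libraries.

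F5 (ENSMUSG00000026579, chr1:164151838-164220277, plus strand), the cofactor of activated factor X, was the least abundant member per exon length in vehicle. It was at 4.48, 3.56 and 3.69 CPM in vehicle controls and at 2.16, 1.08 and 1.55 CPM in stimulated controls. In the libraries labelled knockout it was at 2.78, 3.78 and 4.04 CPM in vehicle and at 1.71, 1.84 and 1.84 CPM after stimulation. All stimulated libraries lay below all vehicle libraries, and the genotypes overlapped. F5 fell by 1.29 (log2, SE 0.22) in controls (edgeR, adjusted p = 8.51e-05) and by 0.98 (SE 0.22) in the libraries labelled knockout (adjusted p = 0.000921). The stimulated libraries held only 20 to 41 F5 counts each. F5 overlaps the gene models Gm16548 on the opposite strand and Gm16588 on the same strand, which had at most 3 counts, and the sources used here do not say whether counting used strand.

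Of the other clotting factors and cofactors, 6 of 16 genes passed the filter. In controls 4 fell and 0 rose with stimulation by edgeR (0 at an unadjusted p under 0.05 and 0 by DESeq2), and in the libraries labelled knockout the counts were the same. Of all tested genes 32% rose and 34.7% fell in controls, and 33.7% rose and 35.6% fell in the libraries labelled knockout. The list's median log2 response was -0.69 and -0.52. F13a1, the fibrin cross-linking transglutaminase subunit, fell from 11.2 ± 0.713 to 1.28 ± 0.339 CPM in controls (log2 -3.12 ± 0.26, edgeR, adjusted p = 2.71e-08). Vwf, the platelet adhesion protein of endothelium and megakaryocytes, fell from 27.2 ± 1.61 to 14.0 ± 1.04 CPM there (-0.96 ± 0.12, adjusted p = 3.36e-06). Ggcx, the carboxylase that factors VII and X need for their vitamin K-dependent modification, fell by 0.86 (log2, SE 0.13, edgeR, adjusted p = 2.31e-05) in controls. Vkorc1, which recycles the vitamin K for that step, fell by 1.01 (log2, SE 0.20, edgeR, adjusted p = 0.00041) in the libraries labelled knockout. It was at 14.7, 8.28 and 9.11 CPM in vehicle there, with replicate 1 the highest. With 1 library left out the log2 difference ranged from -1.16 to -0.72. In controls Vkorc1 went from 8.25 ± 0.813 CPM in vehicle to 5.74 ± 0.934 CPM after stimulation. After stimulation 2 of the 6 were called higher in the libraries labelled knockout and 0 lower, beside 10% and 6.10% of all genes. Vwf was at 21.5 ± 1.98 CPM there (0.62 ± 0.12, edgeR, adjusted p = 0.00266). F13a1 was at 2.99 ± 1.04 CPM there against 1.28 ± 0.339 CPM. Its log2 difference ranged from 0.9 to 1.44 with 1 library left out, and 3 of those 12 fits lost the call. The 8 endothelial markers, Vwf among them, summed to 16.8 to 18.8 CPM in stimulated controls. Their sum was 30.3 to 33.5 CPM in the stimulated libraries labelled knockout. Of the 8, 3 were tested and 2 of these were called higher, where 10% of all genes were. Vwf made up most of each sum, so the sum is not a measure separate from Vwf itself. The part of endothelial cells in the levels of Vwf, Procr and Thbd was not tested.

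Thbd (ENSMUSG00000074743, chr2:148404466-148408188, minus strand), the thrombin receptor that starts protein C activation, was at 24.2, 24.1 and 21.7 CPM in vehicle controls and at 18.5, 20.2 and 20.3 CPM in the vehicle libraries labelled knockout. Stimulated cells had 1.05, 0.863 and 0.518 CPM in controls and 0.353, 0.651 and 0.736 CPM in the libraries labelled knockout. The vehicle genotypes did not overlap and the stimulated ones did. The log2 difference with stimulation was -4.84 ± 0.18 in controls and -5.05 ± 0.19 in the libraries labelled knockout. The stimulated values rest on 10 to 20 counts per control library and 6 to 14 per library labelled knockout, so their ratio is imprecise: the genotype difference was -0.46 ± 0.31 there and -0.25 ± 0.12 in vehicle.

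Procr (ENSMUSG00000027611, chr2:155751117-155755471, plus strand), the receptor that presents protein C to thrombomodulin, went the other way. It was at 30.6, 31.8 and 34.7 CPM in vehicle controls and at 475, 500 and 514 CPM in stimulated controls. In the libraries labelled knockout it was at 44.5, 34.0 and 34.9 CPM in vehicle and at 371, 401 and 395 CPM after stimulation. Every stimulated control library was above every stimulated library labelled knockout, while the vehicle groups overlapped. Procr rose by 3.94 ± 0.11 (log2) in controls (15.4-fold, edgeR, adjusted p = 1.95e-14) and by 3.37 ± 0.10 in the libraries labelled knockout (adjusted p = 9.43e-14). The difference in response was -0.57 ± 0.14 (edgeR, adjusted p = 0.0199), and without vehicle labelled-knockout replicate 1, the highest of its group, it was -0.45 ± 0.09 (adjusted p = 0.0013). It missed the threshold without vehicle control replicate 1 (-0.53, adjusted p = 0.0674) or 2 (-0.56, adjusted p = 0.0621), stimulated control replicate 2 (-0.57, adjusted p = 0.051) or 3 (-0.55, adjusted p = 0.0636), or stimulated labelled-knockout replicate 1 (-0.54, adjusted p = 0.058).

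The stimulated genotype difference of Procr was -0.35 ± 0.09 (edgeR, adjusted p = 0.0188). That call was lost without stimulated control replicate 2 (-0.35, adjusted p = 0.0599) or 3 (-0.33, adjusted p = 0.0805), or stimulated labelled-knockout replicate 1 (-0.32, adjusted p = 0.0832) or 3 (-0.36, adjusted p = 0.0551). Per exon length, Procr exceeded Thbd by a ratio of 2.32 to 2.94 in vehicle controls and 3.09 to 4.41 in the vehicle libraries labelled knockout. In stimulated libraries the ratio was 828 to 1820 in controls and 984 to 1930 in the libraries labelled knockout, overlapping ranges.

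Of the other anticoagulant genes, 8 of 11 passed the filter, and with stimulation 2 rose and 3 fell in each genotype, close to the shares over all genes (32% and 34.7% in controls, 33.7% and 35.6% in the libraries labelled knockout). Tfpi2, a Kunitz-type protease inhibitor, rose from 0.43 ± 0.121 to 2.43 ± 0.194 CPM in controls (log2 2.49 ± 0.24, edgeR, adjusted p = 1.68e-07). Anxa5, which covers the phosphatidylserine on which clotting complexes assemble, rose by 0.72 ± 0.10 (edgeR, adjusted p = 8.41e-06). Gas6 and Pros1, which encode related vitamin K-dependent ligands of the TAM receptors (protein S is also the cofactor of activated protein C), fell by 3.14 (log2, SE 0.28, adjusted p = 5.59e-08) and 1.06 (SE 0.12, adjusted p = 7.57e-07) in controls. Tfpi, the inhibitor of the tissue factor complex, fell by 0.67 (log2, SE 0.10, edgeR, adjusted p = 2.76e-05) in controls and by 0.87 (SE 0.10, adjusted p = 1.93e-06) in the libraries labelled knockout. Between genotypes 0 of 8 were called in vehicle (0 at an unadjusted p under 0.05, 0 by DESeq2). Of all genes 2.11% were higher and 1.69% lower there. After stimulation 0 were called by edgeR (1 at an unadjusted p under 0.05 and 1 by DESeq2), beside 10% and 6.10% of all genes. At these shares, 0 of 8 says little about the list.

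Plau (ENSMUSG00000021822, chr14:20836662-20843388, plus strand), urokinase, was at 7.77, 9.23 and 9.24 CPM in vehicle controls and at 10.3, 12 and 10.3 CPM in the vehicle libraries labelled knockout. After stimulation it was at 58.8, 50.6 and 52.6 CPM in controls and at 62.2, 89.1 and 78.9 CPM in the libraries labelled knockout. The genotypes did not overlap under either treatment. Plau rose by 2.63 ± 0.13 (log2) in controls (edgeR, adjusted p = 5.46e-11) and by 2.82 ± 0.13 in the libraries labelled knockout (adjusted p = 1.74e-11). The genotype difference passed after stimulation (0.51 ± 0.12, edgeR, adjusted p = 0.00895) and not in vehicle (0.32 ± 0.14, adjusted p = 0.26), and the 2 were not shown to differ (0.19 ± 0.18, adjusted p = 0.528). The stimulated call was lost without stimulated control replicate 2 (0.46, adjusted p = 0.0504) or stimulated labelled-knockout replicate 2 (0.39, adjusted p = 0.0578).

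Plaur (ENSMUSG00000046223, chr7:24462500-24475873, plus strand), the urokinase receptor, was the most abundant member per exon length in all 4 groups. It was at 461, 474 and 526 CPM in vehicle controls and at 661, 511 and 470 CPM in the vehicle libraries labelled knockout. Stimulated cells had 1750, 2080 and 1990 CPM in controls and 2080, 1940 and 1930 CPM in the libraries labelled knockout. The genotypes overlapped under both treatments. Plaur rose by 2.0 ± 0.12 (log2) in controls (edgeR, adjusted p = 2.96e-10) and by 1.86 ± 0.11 in the libraries labelled knockout (adjusted p = 6.03e-10). The vehicle genotype difference was 0.17 ± 0.11 (edgeR, adjusted p = 0.471), and 0.01 ± 0.07 (adjusted p = 0.97) without replicate 1 of the labelled-knockout group, the highest of the 6. The ratio of receptor to urokinase per exon length was 93.8 ± 6.87 in vehicle controls and 60.9 ± 9.80 in stimulated controls. In the libraries labelled knockout it was 85.0 ± 19.3 in vehicle and 44.6 ± 10.3 after stimulation.

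Of the other plasminogen activation, binding and inhibition genes, 11 of 16 passed the filter. With stimulation 4 rose and 5 fell in controls, and 4 rose and 6 fell in the libraries labelled knockout, beside 32% and 34.7%, and 33.7% and 35.6%, of all genes. The list's median log2 response was -0.08 in controls and -0.52 in the libraries labelled knockout. Serpinb2 was at 4.41, 4.4 and 5.20 CPM in vehicle controls and at 276, 281 and 298 CPM in stimulated controls (log2 5.94 ± 0.18, edgeR, adjusted p = 8.31e-14). Serpinb2, an inhibitor of urokinase, thus had a larger log2 response than urokinase. Serpine2, an inhibitor of thrombin and urokinase, rose by 4.02 ± 0.21 (log2) in controls (edgeR, adjusted p = 6.64e-11). Per exon length, the ratio of Plau to Serpinb2 was 1.77, 2.1 and 1.78 in vehicle controls and 0.214, 0.18 and 0.177 in stimulated controls. In the libraries labelled knockout it was 1.25, 1.25 and 1.46 in vehicle and 0.132, 0.311 and 0.211 after stimulation. The order of the 2 levels was thus opposite in vehicle and stimulated libraries of both genotypes.

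Of the genes that fell, Lrp1, the receptor that clears protease-serpin complexes, was lower by -1.59 ± 0.13 (log2) in stimulated controls (edgeR, adjusted p = 2e-08), and Plgrkt, a plasminogen receptor, by -0.63 ± 0.09 (adjusted p = 9.68e-06). In vehicle, Serpinb2 was higher in the libraries labelled knockout, at 8.28, 9.63 and 7.09 CPM (0.84 ± 0.18, edgeR, adjusted p = 0.0131). That call was lost without either of vehicle control replicates 1 (0.80, adjusted p = 0.0754) and 2 (0.80, adjusted p = 0.0724), or vehicle labelled-knockout replicates 1 (0.85, adjusted p = 0.241) and 2 (0.72, adjusted p = 0.0665). After stimulation Serpine2 was lower in the libraries labelled knockout, at 3.59, 4.07 and 3.94 CPM against 7.90, 6.53 and 5.96 CPM (-0.81 ± 0.15, edgeR, adjusted p = 0.00198). Serpinb8, a relative of Serpinb2, was lower too, at 13.1, 15.6 and 16.7 CPM against 21.0, 19.5 and 21.9 CPM (-0.46 ± 0.10, adjusted p = 0.00632). Plat, tissue plasminogen activator, was higher, at 8.08 ± 2.82 against 4.37 ± 0.351 CPM (0.88 ± 0.25, adjusted p = 0.025). It lost the call without stimulated control replicates 2 (0.87, adjusted p = 0.0774) or 3 (0.83, adjusted p = 0.0936) or stimulated labelled-knockout replicate 1 (0.57, adjusted p = 0.147).

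**Figure D4:**
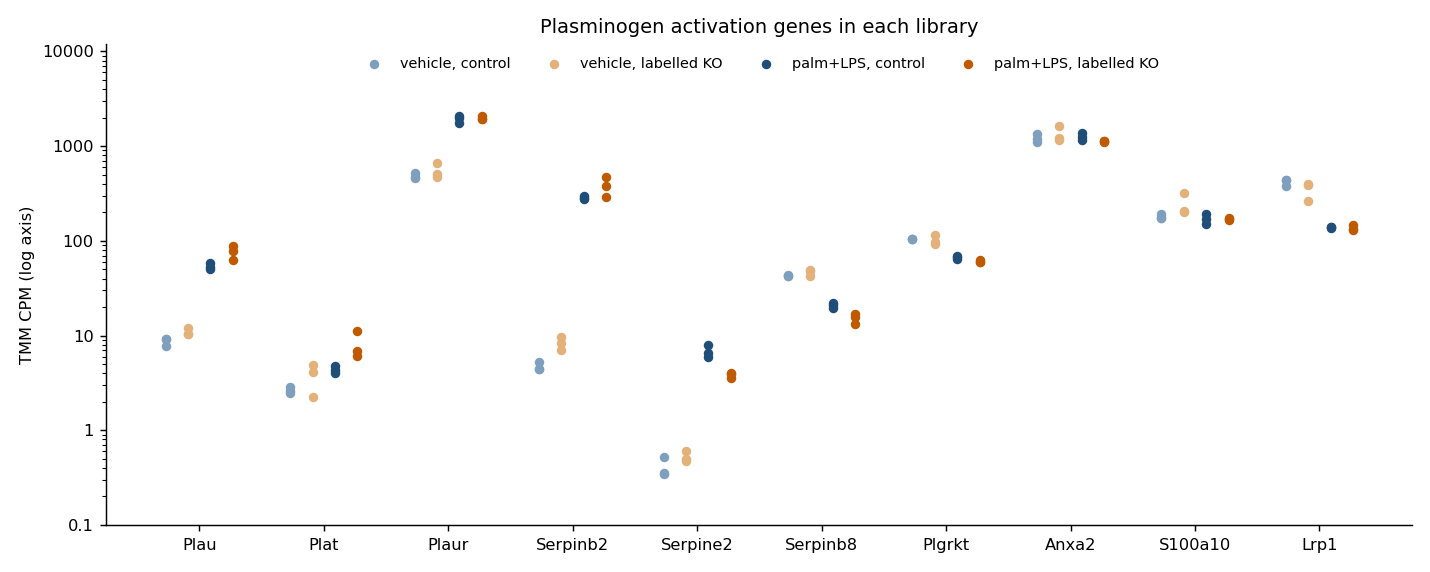
TMM-normalised CPM (log axis) of Plau, Plaur and other plasminogen activation genes, with 1 point per library coloured by group. Serpinb2 goes from between 4.4 and 9.63 CPM in vehicle to between 276 and 473 CPM after stimulation, while Plau goes from between 7.77 and 12 to between 50.6 and 89.1 CPM.

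Thbs1 (ENSMUSG00000040152, chr2:118111876-118127133, plus strand) was at 12.2, 10.8 and 8.13 CPM in vehicle controls and at 7.97, 19.3 and 17.2 CPM in the vehicle libraries labelled knockout. After stimulation it was at 22.2, 19.4 and 21.3 CPM in controls and at 86.1, 61.9 and 69.7 CPM in the libraries labelled knockout. The 3 stimulated libraries labelled knockout lay above all 9 others, and the vehicle genotypes overlapped because replicate 1 of the labelled-knockout group was the lowest of the 6. The log2 genotype difference was 1.79 ± 0.23 after stimulation and 0.52 ± 0.25 in vehicle, or 0.80 ± 0.17 in vehicle without that replicate. The log2 difference with stimulation was 1.01 ± 0.25 in controls and 2.28 ± 0.24 in the libraries labelled knockout (1.99 ± 0.16 without that replicate). The difference between the responses was 1.27 ± 0.34, and 0.99 ± 0.22 without it. Thbs1 overlaps the lincRNA model Gm29233 on the opposite strand, which had 0 counts in all 12 libraries.

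Connective tissue cells also make thrombospondin-1, so the 12 fibroblast and mesothelial markers are set beside it. Their summed level was 139, 139 and 119 CPM in vehicle controls and 153, 198 and 176 CPM in the vehicle libraries labelled knockout. It was 168, 145 and 146 CPM in stimulated controls and 350, 200 and 246 CPM in the stimulated libraries labelled knockout. The stimulated library with the highest marker sum was also the one with the highest Thbs1. After stimulation, 6 of the 11 markers tested were called higher in the libraries labelled knockout, where 10% of all genes were. The other 5 were not called by edgeR, and 6.10% of all genes were called lower. The ratio of Thbs1 counts to marker counts was 0.132, 0.134 and 0.146 in stimulated controls and 0.246, 0.309 and 0.283 in the stimulated libraries labelled knockout. In vehicle it was 0.0879, 0.0774 and 0.0686 in controls and 0.0520, 0.0973 and 0.0978 in the libraries labelled knockout. The markers did not move together, so the ratio depends on which are summed. With stimulation, 2 of the 11 tested rose and 6 fell in controls, beside 32% and 34.7% of all genes. Col1a1 alone was at 24.8 ± 7.18 CPM in stimulated controls and 66.6 ± 15.1 CPM in the stimulated libraries labelled knockout. The means of Thbs1 there were 21.0 and 72.6 CPM. Pdgfrb went the other way, with 452, 333 and 396 counts in stimulated controls and 264, 302 and 252 in the labelled ones. The part of these cells in the levels of Thbs1, Plau and Plat was not tested.

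**Figure D5:**
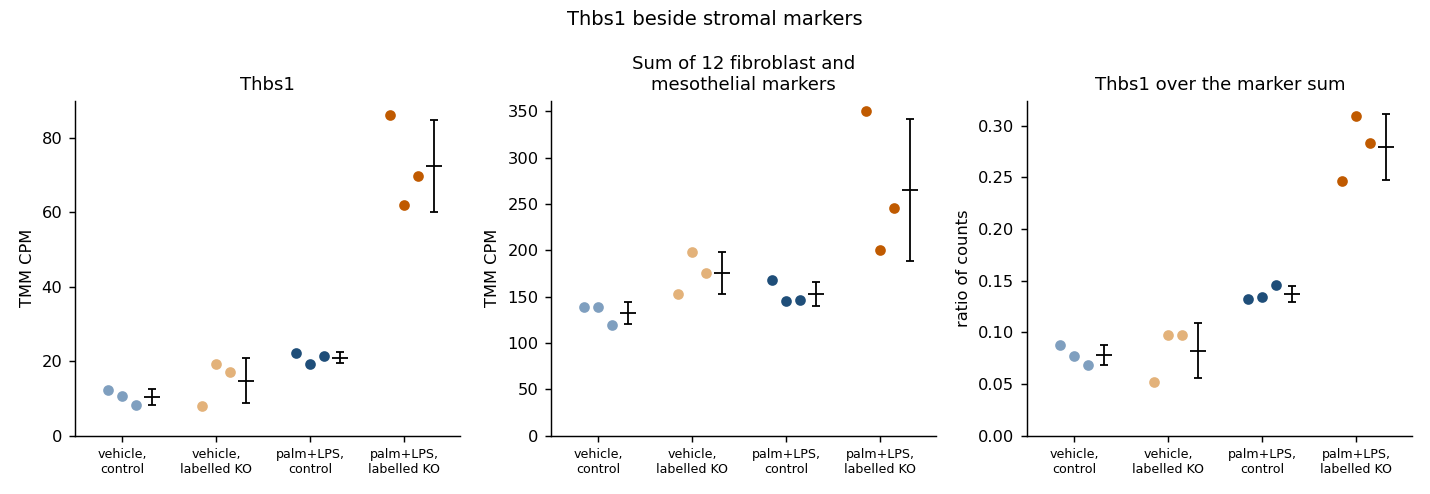
TMM-normalised CPM of Thbs1, summed CPM of 12 fibroblast and mesothelial markers, and the ratio of Thbs1 counts to marker counts in each library, with the mean and SD of each group of 3. Both levels are highest in the stimulated libraries labelled knockout, and the ratio there is 0.279 ± 0.0317 against 0.137 ± 0.00757 in stimulated controls. The markers did not move together, so the ratio depends on which are summed.

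Of the other thrombospondin family and receptor genes, 13 of 14 passed the filter. With stimulation 5 rose and 3 fell in controls, and 9 rose and 4 fell in the libraries labelled knockout, beside 32% and 34.7%, and 33.7% and 35.6%, of all genes. The list's median log2 response was 0.23 in controls and 0.71 in the libraries labelled knockout. Itgav, a subunit of RGD-binding integrins that recognise thrombospondin-1, rose from 21.6 ± 0.85 to 77.3 ± 4.6 CPM in controls (log2 1.84 ± 0.08, edgeR, adjusted p = 6.15e-12), while its partner Itgb3 fell from 20.2 ± 1.15 to 3.90 ± 0.588 CPM (-2.37 ± 0.18, adjusted p = 7.91e-09). Sdc4, a heparan sulfate proteoglycan, rose from 106 ± 6.04 to 509 ± 51.2 CPM there (2.27 ± 0.11, adjusted p = 4.42e-11). Comp, a thrombospondin family member of cartilage and tendon, rose from 0.328 ± 0.115 to 3.14 ± 0.603 CPM (3.28 ± 0.30, adjusted p = 7.6e-08). Cd36, the scavenger receptor for thrombospondin-1 and fatty acids, was at 2220, 2230 and 2270 CPM in vehicle controls and at 1060, 1290 and 1260 CPM in the vehicle libraries labelled knockout. It was lower there by a log2 difference of -0.90 ± 0.08 (edgeR, adjusted p = 9.15e-06), and by -0.91 ± 0.08 (adjusted p = 3.55e-06) after stimulation, when Itgav was lower as well (-0.56 ± 0.08, adjusted p = 0.000117). Between genotypes after stimulation, 2 of the 13 were higher and 2 lower (10% and 6.10% of all genes). The higher ones were Cd47, the other receptor named above, at 283 against 228 CPM (0.31 ± 0.09, edgeR, adjusted p = 0.0336), and Itga4, an integrin subunit, at 22.3 against 16.6 CPM (0.43 ± 0.11, adjusted p = 0.0181). Both calls were lost with total-count scaling (0.23, adjusted p = 0.191, and 0.34, adjusted p = 0.0951). The Cd47 call was also lost without vehicle control replicate 2 (0.31, adjusted p = 0.0528) and without any 1 of the 6 stimulated libraries (0.29 to 0.32, adjusted p = 0.0753 to 0.126). The Itga4 call was lost without stimulated control replicate 1 (0.43, adjusted p = 0.0544) or 2 (0.39, adjusted p = 0.0799), or stimulated labelled-knockout replicate 2 (0.37, adjusted p = 0.0783) or 3 (0.44, adjusted p = 0.0509). Stimulation itself lowered Cd36 by -1.09 ± 0.08 in controls (edgeR, adjusted p = 9.59e-09). In the stimulated libraries labelled knockout, the highest Thbs1 therefore stood beside the lowest Cd36, at 543, 544 and 595 CPM.

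Over all the other pathway genes, 39 of 61 were tested. Between genotypes, 2 were higher and 2 lower in vehicle (2.11% and 1.69% of all genes), and 6 were higher and 4 lower after stimulation (10% and 6.10% of all genes). With total-count scaling the stimulated split turned to 4 higher and 9 lower. With stimulation 11 rose and 15 fell in controls (10 and 21 with total-count scaling), and 15 rose and 18 fell in the libraries labelled knockout, beside 32% and 34.7%, and 33.7% and 35.6%, of all genes. The response differed between the genotypes for 2, Serpinb8 and Serpine2, both with a lower log2 response in the libraries labelled knockout. By edgeR 0 had a higher one, with 8 at an unadjusted p under 0.05 and 0 by DESeq2. Of all genes 3.35% were called with a lower response and 4.70% with a higher one.

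Ranked by RPKM, the level per exon length, the members stood in a different order after stimulation. In vehicle controls it was Plaur (349), F7 (205), F10 (68.8), Procr (15.9), Thbd (6.27), Plau (3.73), F3 (2.04), Thbs1 (1.71) and F5 (0.526), in which only F3 and Thbs1 overlapped among neighbours. In stimulated controls it was Plaur (1390), F10 (646), Procr (244), F7 (118), Plau (23.0), F3 (17.8), Thbs1 (3.45), Thbd (0.218) and F5 (0.215), in which only Thbd and F5 overlapped. In the vehicle libraries labelled knockout F7 (79.2) and F10 (75.8), Thbd (5.28) and Plau (4.65), and Thbs1 (2.44) and F3 (1.79) overlapped. In the stimulated libraries labelled knockout F3 (14.7) and Thbs1 (11.9) overlapped.

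The genes whose log2 CPM ran most like that of a member over the 12 libraries were sought among 7581 genes with at least 10 CPM in their highest group. For F10 they were the chemokine genes Ccl4 and Ccl3 (Pearson r 0.9994 for each) and Sod2, mitochondrial superoxide dismutase (0.9991). For Thbd they were Cnr2, a cannabinoid receptor gene (0.9962), Zfp704 (0.996) and St6gal1, a sialyltransferase gene (0.9955). For Thbs1 they were Ptprc, which encodes the leukocyte antigen CD45 (0.9895), C3 of complement (0.9889) and Jarid2 (0.9848). The libraries fall into 2 treatment clusters that these values share, so for F10 and Thbd r mostly measures that separation, and it describes likeness only.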

How the data were processed

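RNA was purified on Ambion columns and libraries were made with Clontech SMARTer v1, per the labels' protocols. GRCm38, STAR 2.0.4b, featureCounts 1.45, Subread and bcl2fastq 2.0 are listed, without roles, in the submitters' processing notes. Neither their options nor the strand setting is known here. For each library the authors deposited a raw count, a CPM (count relative to the library's own sum) and an RPKM (CPM per kilobase of exon) for 41388 genes, per the file headers. Gene symbols were matched for 40254 of the IDs. Only the counts were tested. The TMM-scaled CPM and RPKM in the text were recomputed from the deposited counts.

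Genes were filtered with edgeR's filterByExpr by group, which kept 12914 genes with at least 99.92% of each library's counts. In R 4.3.3, edgeR 4.0.16 with TMM factors and robust dispersions gave quasi-likelihood tests from a model of the 4 group means over the 12 libraries, for 5 comparisons: genotype in each treatment, treatment in each genotype, and the difference between the responses. P-values were adjusted by the Benjamini-Hochberg method over all genes tested. The fit was tested on simulated data. Alternatives were DESeq2 1.42.0, RLE or total-count scaling, no filter, only the groups compared, a replicate block, and each library left out.

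Members and lists were chosen with earlier results of these data known. The rule for named genes took Pparg, the 9 members in every comparison, up to 3 genes per direction, comparison and list with the smallest p past the threshold, and the 3 genes most like each of F10, Thbd and Thbs1; fewer are printed than it allows. The lists were clotting factors and cofactors, anticoagulant genes, protease-activated receptors (1 of 4 genes tested, F2rl2, lower with stimulation in the libraries labelled knockout on few counts), plasminogen activation, and thrombospondin family and receptors. Markers of other cell types were summed per library. 1 gene of the lists stays in the counts of genes called and is not reported here by name.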

Additional observations from a re-analysis of the deposited data

Results flagged for a closer look

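The response to palmitate plus LPS differed between the genotypes, by edgeR's test of the difference itself, for 1 of the 6 tested members and for 2 genes of the plasminogen list. Over all tested genes, 3.35% were called with a lower response in the libraries labelled knockout and 4.70% with a higher one. On the log2 scale, labelled-knockout response minus control response was -0.57 ± 0.14 for Procr (adjusted p = 0.0199, and 0.000894 to 0.0674 over its alternatives), which rose in both genotypes. It was -0.58 ± 0.14 for Serpinb8 (adjusted p = 0.0199), which fell in both. It was -1.16 ± 0.34 for Serpine2 (adjusted p = 0.049), which rose in both from 7 to 15 counts per vehicle library. The Serpine2 call was lost in most of its alternatives, with adjusted p-values between 0.0461 and 0.14, and those of Serpinb8 ran from 0.00204 to 0.0684.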

How the results depend on the processing

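Single-gene differences were recomputed 1913 times, and 1828 counted as unchanged. For tested genes this meant the same direction and side of the threshold. For F10, Thbd and Thbs1, which have no test, it meant a move smaller than the spread between libraries. Of the rest, 73 lost a call, 5 gained one, 5 changed sign and 2 moved by more than that spread (F10, under total-count scaling, above). The 5 sign changes counted were of tested members that were not called: after stimulation, F5 at -0.05 without stimulated control replicate 2 (-0.05 to 0.43 over all libraries left out), and Plaur at -0.05 with total-count scaling or without stimulated control replicate 1 and at -0.01 without stimulated labelled-knockout replicate 1 (-0.05 to 0.08 over all), and the Plaur difference in response, 0.02 without vehicle labelled-knockout replicate 1 (-0.24 to 0.02 over all). The untested Thbd difference in response, -0.21 ± 0.33, ranged from -0.46 to 0.03 over the libraries left out. It thus changed sign too, within its standard error, and is not among the 5. Genes called in vehicle went from 491 to 960 with no filter and 229 with only the groups compared (other pathway genes: 2). After stimulation they went from 2081 to 3811 with only the groups compared (pathway: 16). For the difference in response they went from 1039 to 1875 with no filter (pathway: 7). Leaving out 1 library gave 261 to 789 genes (pathway 1 to 6) in vehicle, 1227 to 4080 (members 1 to 4, pathway 6 to 15) after stimulation, and 428 to 1962 (members 0 to 2, pathway 0 to 7) for the difference in response. Where an arm kept 2 libraries, the spread came from all groups. The cause of these shifts was not tested. Replicate numbers showed no pairing of the libraries: in their deviations from the group means, same-numbered pairs of libraries correlated at -0.244 to 0.0435, with 0 of 18 over 0.1. Deviations from means of 3 libraries cannot exclude pairing, and the labels do not state it. With the replicate block the difference in response had 514 genes, 0 members and 0 other pathway genes called, and Procr was at -0.57 (log2, edgeR, adjusted p = 0.0543). Depth limits stimulated Thbd and F5 and vehicle Serpine2.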
